A study of Glycine max with 8 samples.

Results

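The late embryogenesis and seed maturation genes PM28, PM29, PM30, PM31, PM34 and LEA-2 were followed through soybean (Glycine max) seed development. They are the 6 genes carrying these symbols in the platform's table of probe sets and genes, and they are read by 8 of the 37641 soybean probe sets of the array, 3 of them for PM30. The samples came from the cultivar Tamahomare at 4 stages, with 2 arrays per stage and no treatment named: pods starting to elongate, pods together with beans 2 mm long, beans 5 mm long, and green beans that were fully grown. The labels do not say whether the 2 samples of a stage are from different plants, and the p-values therefore reflect the spread of these samples alone, and that spread may be technical. The design text asks how transcripts change from stage to stage. Below, bean 2 mm and 2 mm beans stand for the samples of pods together with beans. The tissue sampled thus changed along with stage, from pods to pods with beans to beans. The effects of tissue and of stage cannot be told apart.

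Seeds of plants such as soybean survive drying because the embryo fills late in development with protective molecules. Late embryogenesis abundant (LEA) proteins are mostly hydrophilic proteins with little fixed structure that protect enzymes and membranes during drying, and they accumulate with the hormone abscisic acid and the regulators of seed maturation. The soybean PM series was named from transcripts cloned from maturing seeds, and it holds proteins of more than one kind. PM30 is a LEA protein of the third group, PM31 is a small heat shock protein, a chaperone that holds unfolded proteins, and PM34 belongs to the short-chain dehydrogenase family. LEA-2 bears the name of a LEA protein. The function of PM28 and PM29 is left unstated here.

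Levels are scaled signals: each array's intensities were multiplied by 1 factor so that all arrays had an equal median over the tested soybean probe sets. A signal was called above background when it was higher than 95% of the probe sets for 2 soybean pathogens, Phytophthora sojae and Heterodera glycines, on the same array. On the scaled axis this limit lay between 5.62 and 6.68 on the arrays of the first 3 stages and higher, at up to 18.6, in fully grown beans. Median intensities as deposited ran from 24.1 to 138 over the 8 arrays, and the 3' to 5' signal ratio of actin, a measure of RNA integrity, from 2.05 to 4.80, highest on fully grown replicate 2. A lower count of cells of one type and less transcript per cell cannot be told apart in such bulk samples. The number of arrays limits the precision.

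The stage labels were set against marker genes. The seed storage markers GY1, GY2, GY3, GY5, CG-BETA-1 and KTI3 (6 of 7 found by symbol) summed to 6.91 and 9.85 in elongating pods, 91.2 and 53.0 in 2 mm beans, 2254 and 3914 in 5 mm beans and 97211 and 103700 in fully grown beans. Above background on both arrays were 0 of these 6 in pods, 1 in 2 mm beans, 2 in 5 mm beans and 6 in fully grown beans. The pod and vegetative markers VSPA and VLXC (2 of 3 found) summed to 6476 and 6363 in pods and to between 195 and 1936 at the later stages, and the 4 green tissue markers to 6868 and 6755 in pods against 1937 to 4548 later. The 3 seed coat markers found of 4 summed to 957 and 1140 in pods and to between 6232 and 9080 later, but did not move together. From 5 mm to fully grown beans SCB1 went from 4765 and 5151 to 433 and 801, and ANR1 from 2132 and 2018 to below background, while HPS went from 1370 and 1910 to 7285 and 6954. These markers moved with stage, and their part in the results below was not tested.

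The 6 genes came on at different stages. LEA-2 was above background on both arrays from pod elongation. PM29 and, on its brightest probe set, PM30 were so from bean 2 mm, PM34 from bean 5 mm, and PM28 in fully grown beans alone. A dimmer PM30 set, the third one described below, was above background on all 8 arrays and so from pod elongation. PM31 also cleared the limit on both arrays in 2 mm beans, but by little, and it was below it in 5 mm beans. With the limit raised to the 99th percentile, PM31 was above background only in fully grown beans and the other 5 genes kept their stage. Among all 33625 tested probe sets, 92.4% were above background on both arrays from pod elongation, 4.10% from bean 2 mm, 1.05% from bean 5 mm and 0.639% in fully grown beans only.

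**Figure D1:**
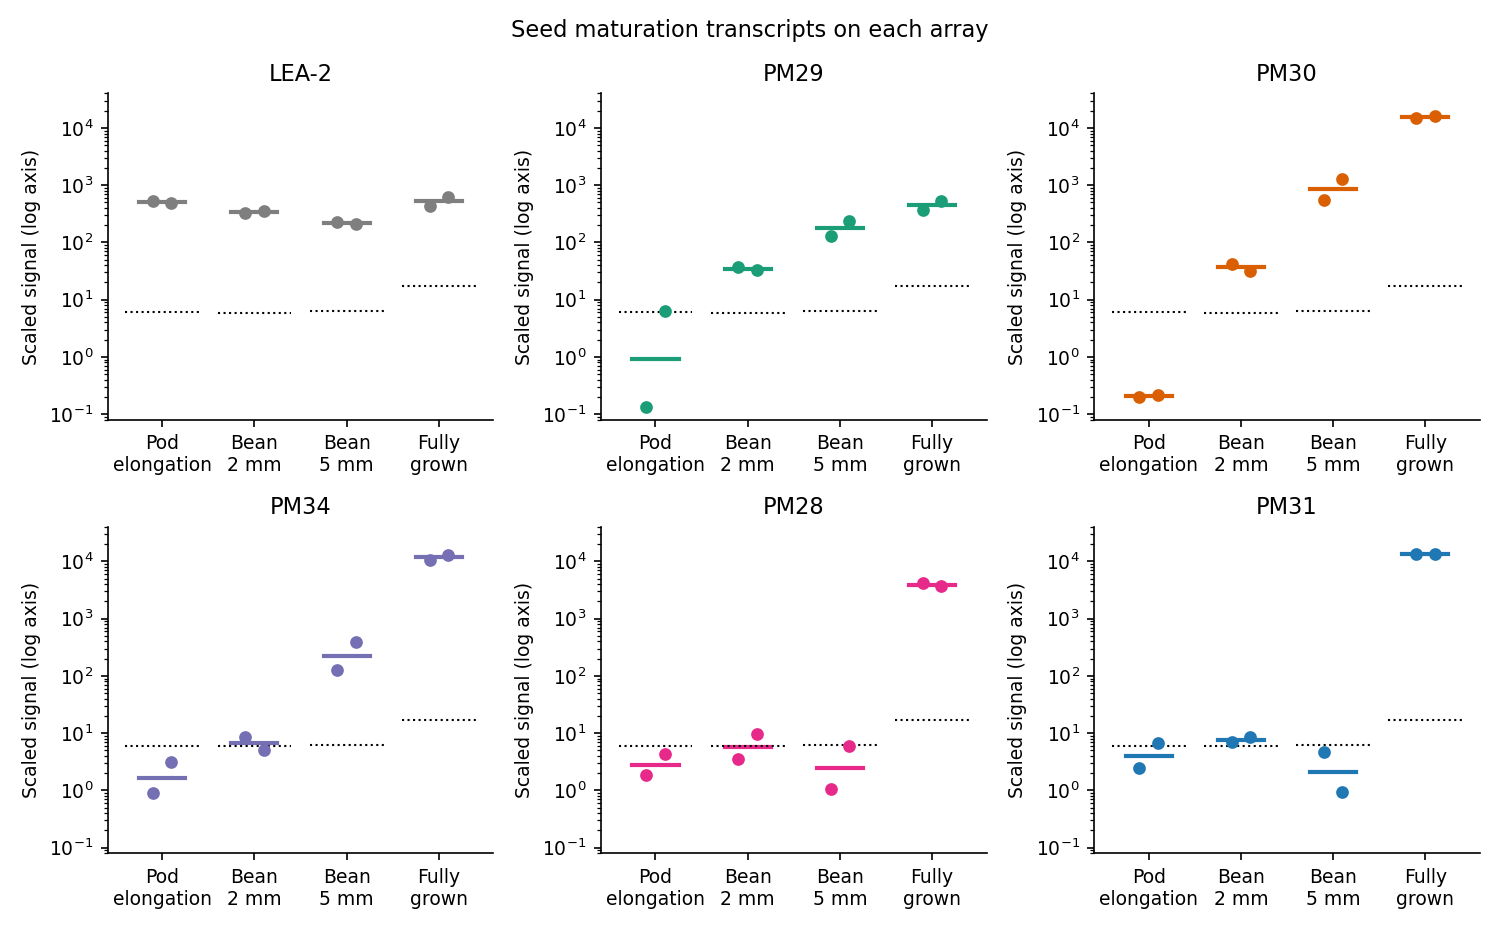
Scaled signal (log axis) of the 6 genes on each of the 8 arrays by stage. Points are arrays, horizontal bars are geometric means of 2 arrays, and dotted lines are the mean background limit of the stage. LEA-2 stays between 214 and 621, PM29, PM30 and PM34 climb over successive stages, and PM28 and PM31 lie near or below the limit until fully grown beans.

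On its brightest probe set, PM30 was the first of the strongly rising members. It stood at 0.201 and 0.212 in elongating pods, both below background, at 42.4 and 31.5 in 2 mm beans, at 541 and 1307 in 5 mm beans and at 14909 and 16195 in fully grown beans. No 2 stages overlapped. The rise to bean 2 mm was at least 6.05-fold, by the mean of the bright stage over the background limit of the dim one. On the scale log2(scaled signal + 16), used for all tests, the increase was 1.70 (SE 0.32, adjusted p = 0.00262, limma over all 33625 tested probe sets). It then rose by 4.03 (SE 0.32, adjusted p = 0.000285) to bean 5 mm and by 4.18 (SE 0.32, adjusted p = 1.30e-05) to fully grown beans. From pods to fully grown beans it gained at least 2568-fold. Bounds of this kind hold for equal array medians only. That scaling multiplied fully grown arrays by 2.13 and 2.59, 5 mm arrays by 0.972 and 0.991 and pod arrays by 0.856 and 0.860. For the values as deposited, bounds on rises to fully grown beans would be lower.

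PM34 came a stage later. Its signals were 0.884 and 3.10 in pods, both below background, then 8.51 and 5.12 in 2 mm beans, the second of them below background. They reached 129 and 394 in 5 mm beans and 10776 and 12883 in fully grown beans. The first step did not pass the test (log2 change 0.34, SE 0.38, adjusted p = 0.50, limma), although it did for the values as deposited (0.69, adjusted p = 0.0468). PM34 rose by 3.42 (SE 0.38, adjusted p = 0.00101) to bean 5 mm and by 5.60 (SE 0.38, adjusted p = 6.84e-06, limma) to fully grown beans. The gain from pods to fully grown beans was at least 1947-fold at equal array medians.

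The bean 5 mm values of PM30 and PM34 depended on which array was read. Replicate 2 was 2.41 times replicate 1 for PM30 and 3.05 times for PM34. Without replicate 1 of that stage the log2 rise to bean 5 mm was 4.65 for PM30 and 4.17 for PM34, and without replicate 2 it was 3.40 and 2.67. The rise to fully grown beans moved the other way, to 3.56 and 4.85 without replicate 1 and to 4.80 and 6.34 without replicate 2. Each of these values passed the test (limma).

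PM29 came on at the same stage as the brightest PM30 probe set and gained less by fully grown beans. Its 2 pod arrays read 0.132, below background, and 6.38, just above it. In 2 mm beans it read 37.4 and 32.7, in 5 mm beans 131 and 238, and in fully grown beans 361 and 540. All 3 steps were increases, of 1.42 (SE 0.28, adjusted p = 0.00341), 1.92 (SE 0.28, adjusted p = 0.00349) and 1.24 (SE 0.28, adjusted p = 0.00586) on the log2 scale (limma). The bean 5 mm arrays already held 29.1% and 52.9% of the mean of fully grown beans, against 3.48% and 8.40% for PM30 and 1.09% and 3.33% for PM34. The last increase depended on how arrays were scaled. Another scaling, called control-based scaling from here on, put arrays on the level of the hybridization controls. These are added at hybridization and not to the RNA of the tissue, so they do not give transcript amount per tissue. Under it PM29 fell (log2 change -0.93, SE 0.25, adjusted p = 0.0016, limma). For the values as deposited the log2 change of PM29 was 0.05 (adjusted p = 0.872, limma).

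PM28 and PM31 stayed near or below background until the last stage. PM28 read 1.84 and 4.33 in pods, 3.52 and 9.52 in 2 mm beans, and 1.05 and 5.93 in 5 mm beans, and of these 6 arrays only bean 2 mm replicate 2 was above background. In fully grown beans it read 4185 and 3732. Neither of its first 2 steps passed the test, with log2 changes of 0.23 (SE 0.19, adjusted p = 0.353) and -0.21 (SE 0.19, adjusted p = 0.479). The last step raised it by 7.68 (SE 0.19, adjusted p = 3.19e-08, limma), at least 626-fold at equal array medians. Probe sets were tested if above background on at least 2 arrays, and PM28 met this only through the fully grown arrays. Its test is thus not independent of the filter, and without the filter adjusted p was 8.31e-08 (limma).

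PM31 read 2.48 and 6.66 in pods, 7.01 and 8.52 in 2 mm beans, and 4.63 and 0.942 in 5 mm beans, then 13508 and 13249 in fully grown beans. The 2 fully grown arrays differed by less than those of any other member. Its first 2 log2 changes, 0.22 (SE 0.16, adjusted p = 0.289) and -0.35 (SE 0.16, adjusted p = 0.152), did not pass the test. The last was 9.48 (SE 0.16, adjusted p = 2.87e-09, limma), at least 2119-fold at equal array medians. Both PM28 and PM31 are bounded from below here, so the order of their changes is not settled. In 5 mm beans PM31 was at 0.0346% and 0.00704% of its fully grown mean, both readings below background.

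LEA-2 was above background on all 8 arrays. It read 525 and 483 in elongating pods, 326 and 350 in 2 mm beans, 227 and 214 in 5 mm beans and 441 and 621 in fully grown beans. Pod and fully grown arrays overlapped, while each successive pair of stages did not. LEA-2 fell by 0.56 (SE 0.16, adjusted p = 0.0182) to bean 2 mm and by 0.58 (SE 0.16, adjusted p = 0.035) to bean 5 mm on the log2 scale, and rose by 1.19 (SE 0.16, adjusted p = 0.000283, limma) to fully grown beans. Fully grown beans against pods gave a log2 change of 0.05 (SE 0.16, adjusted p = 0.78).

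The changes of LEA-2 were small enough to be lost under some other choices. With only the arrays of the stages compared, LEA-2 was called at all 3 steps (adjusted p = 0.00222, 0.00842 and 0.00407, limma). Its first fall was not called without any single pod or bean 2 mm array (adjusted p between 0.0562 and 0.113), and its second not when 1 array of any of the first 3 stages was left out (adjusted p between 0.0679 and 0.186, limma). For the values as deposited the first log2 change was 0.18, the last -0.01 and that from pods to fully grown beans -1.34 (adjusted p = 1.25e-06). Under control-based scaling the last was -1.01 (adjusted p = 2.41e-05) and that from pods to fully grown beans -2.40 (adjusted p = 2.08e-11). Without fully grown replicate 1 the change from pods was 0.30 (adjusted p = 0.0435).

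**Figure D2:**
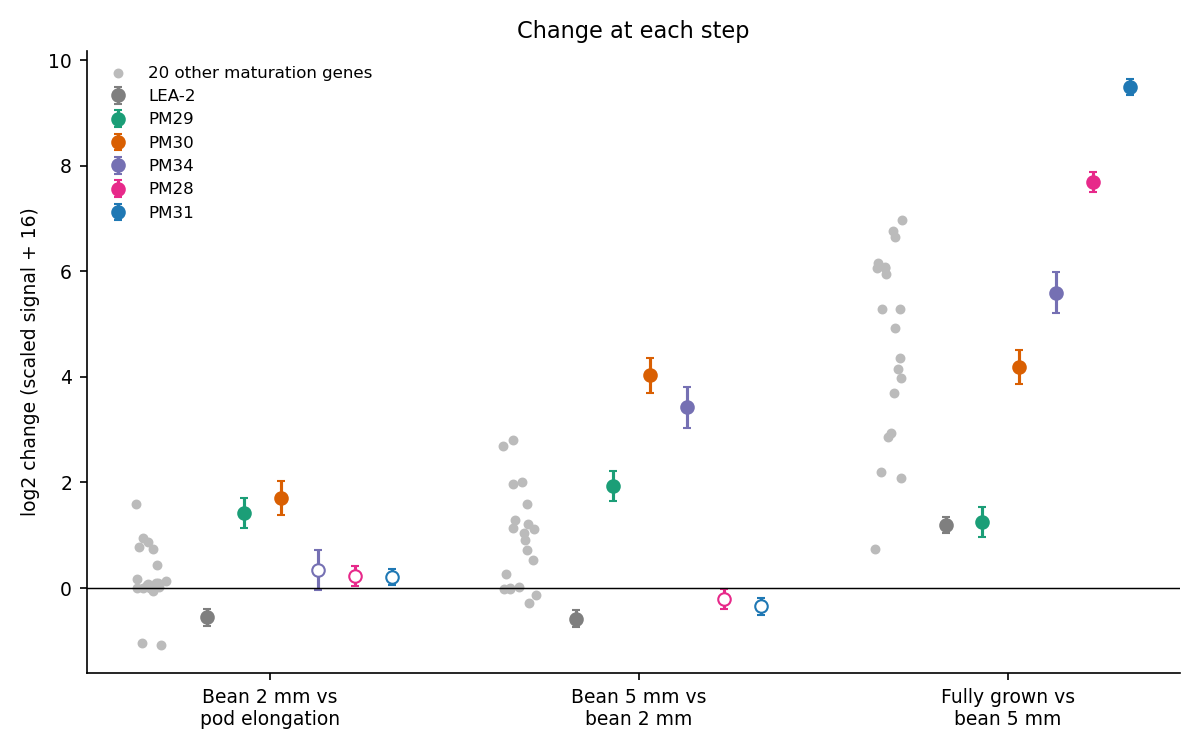
log2 change of scaled signal + 16 at the 3 steps for the 6 genes (larger points, with SE as bars) and 20 other maturation genes (small light grey points). Filled points of the 6 genes passed the limma test and open ones did not, and grey points do not show the test. PM30, on its brightest probe set, leads the first 2 steps at 1.70 and 4.03. PM28 and PM31 stand at 7.68 and 9.48 in the last, from readings below background.

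Counted together, 2 of the 6 members rose and 1 fell from pods to bean 2 mm, where 46.9% of all tested probe sets were called, 26.5% higher and 20.4% lower. From bean 2 mm to bean 5 mm, 3 rose and 1 fell, against 18.8% called, 9.29% higher and 9.49% lower. In the last step, to fully grown beans, all 6 rose, against 52.1% called, 31.6% higher and 20.5% lower. Under control-based scaling 4 members were higher and 2 lower, where 1.83% of all tested probe sets were called higher and 84.4% lower. As deposited 4 were higher and none lower, against 5.26% and 59.1%. From pods to fully grown beans 5 rose, against 62.2% called, 37.3% higher and 24.9% lower. The median log2 change of the members at the 3 steps was 0.29, 0.86 and 4.89, and that of all tested probe sets 0.08, -0.05 and 0.14. Because the 6 genes were chosen with results of these data known, the counts describe them and test nothing about the group.

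Whether a member changed more in the last step than in the middle one was tested directly, as the difference between the 2 changes. The difference was 7.89 (SE 0.33, adjusted p = 3.07e-06) for PM28 and 9.83 (SE 0.27, adjusted p = 2.54e-07) for PM31 on the log2 scale (limma). For LEA-2, which fell and then rose, it was 1.77 (SE 0.27, adjusted p = 0.00167). For PM34 it was 2.17 (SE 0.66, adjusted p = 0.0331), but this call was lost without any single array except bean 5 mm replicate 2 or fully grown replicate 1, and the value ranged from 0.68 to 3.67 with 1 array left out. The call was also lost after quantile normalization (0.93, adjusted p = 0.32), as deposited (1.27, adjusted p = 0.081), at pseudocount 1 (0.81, adjusted p = 0.534) and with only the arrays compared (adjusted p = 0.0579). In all, 4 members were called, all higher, against 34.5% of tested probe sets, 21% higher and 13.5% lower. PM28 passed the background filter only through its fully grown arrays, and without that filter its adjusted p was 6.40e-06 (limma).

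For PM29 and the brightest PM30 probe set the difference did not pass the test, while the third PM30 set gave 1.65 (SE 0.42, adjusted p = 0.0168, limma). For the brightest PM30 set it was 0.15 (SE 0.56, adjusted p = 0.855, limma), and it lay between -1.09 and 1.40 with 1 array left out, the latter value, without bean 5 mm replicate 2, being called. For PM29 it was -0.68 (SE 0.49, adjusted p = 0.315). Control-based scaling gave all 6 genes lower last changes, and there PM30 was at -2.18 (adjusted p = 0.000311), PM29 at -2.84 (adjusted p = 7.18e-06), PM34 at -0.35 and LEA-2 at -0.28.

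The size of the last step depended on the scaling. All tested probe sets had a median change in that step of 0.14 with equal array medians, 0.03 after quantile normalization, -0.64 as deposited and -1.36 under control-based scaling. Relative to that median, PM31 changed by 9.35, 8.16, 8.89 and 8.92 in the same order, PM28 by 7.54, 6.82, 7.09 and 7.12, and PM34 by 5.46, 4.32, 4.98 and 4.65. PM30 changed by 4.04, 2.72, 3.56 and 3.21. PM29 was above the median by 1.10, 0.98, 0.69 and 0.43, and LEA-2 by 1.05, 0.89, 0.63 and 0.35. The 4 strongly rising genes thus kept a positive change under all 4 scalings, and the sign for PM29 and LEA-2 depended on the reference.

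**Figure D3:**
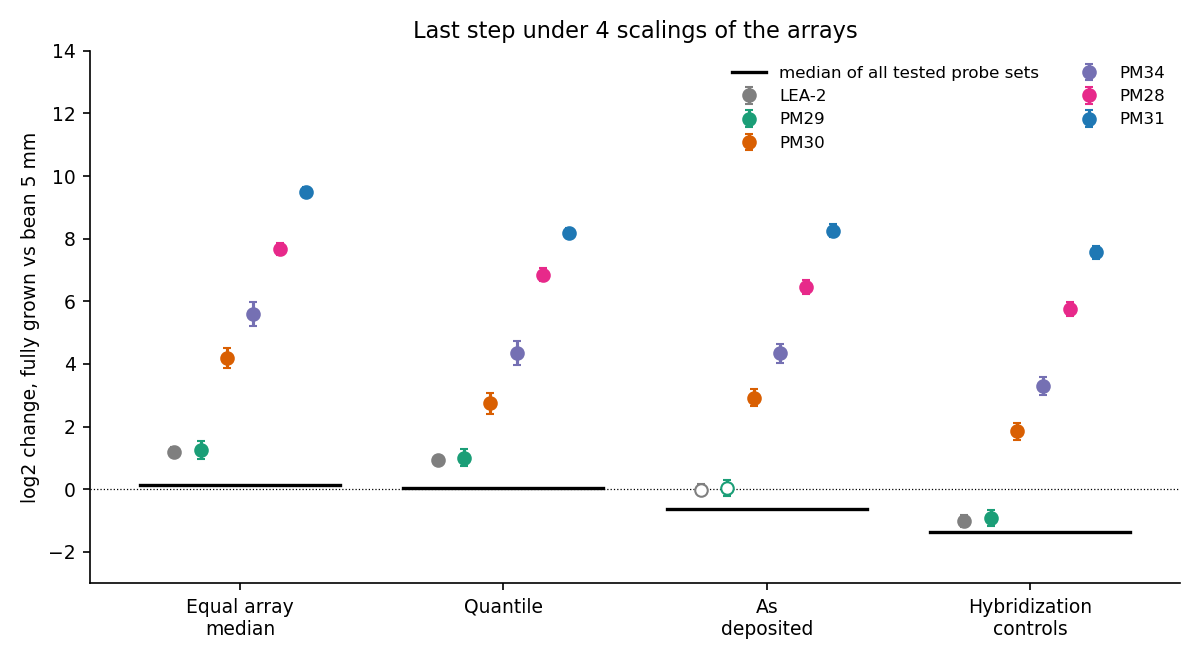
log2 change from bean 5 mm to fully grown beans (vertical axis) for the 6 genes under 4 scalings of the arrays, with SE as bars and the median of all tested probe sets as a black line. Filled points passed the limma test. PM31, PM28, PM34 and PM30 stay above 0 throughout, while PM29 and LEA-2 move from 1.24 and 1.19 to -0.93 and -1.01.

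The 3 probe sets of PM30 did not read alike in size. The set ending in _s_at, a kind that can match several transcripts, read 1.17 and 0.394 in pods, 37.7 and 14.6 in 2 mm beans, 360 and 826 in 5 mm beans and 12609 and 14648 in fully grown beans. It was correlated with the brightest set at r = 0.998 over the 8 arrays, which share their scaling and their stages. The third set, designed on a different sequence record, was above background on all 8 arrays. It read 10.7 and 9.60 in pods, 15.4 and 16.3 in 2 mm beans, 26.5 and 45.6 in 5 mm beans and 310 and 188 in fully grown beans.

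On the third set the first 2 steps did not pass the test, with log2 changes of 0.28 (SE 0.25, adjusted p = 0.376) and 0.68 (SE 0.25, adjusted p = 0.0842), and the last was a rise of 2.33 (SE 0.25, adjusted p = 7.37e-05, limma). The other sets rose by 4.18 and 4.60 in that step. The mean over the 3 sets kept PM30 among the genes called at every step.

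**Figure D4:**
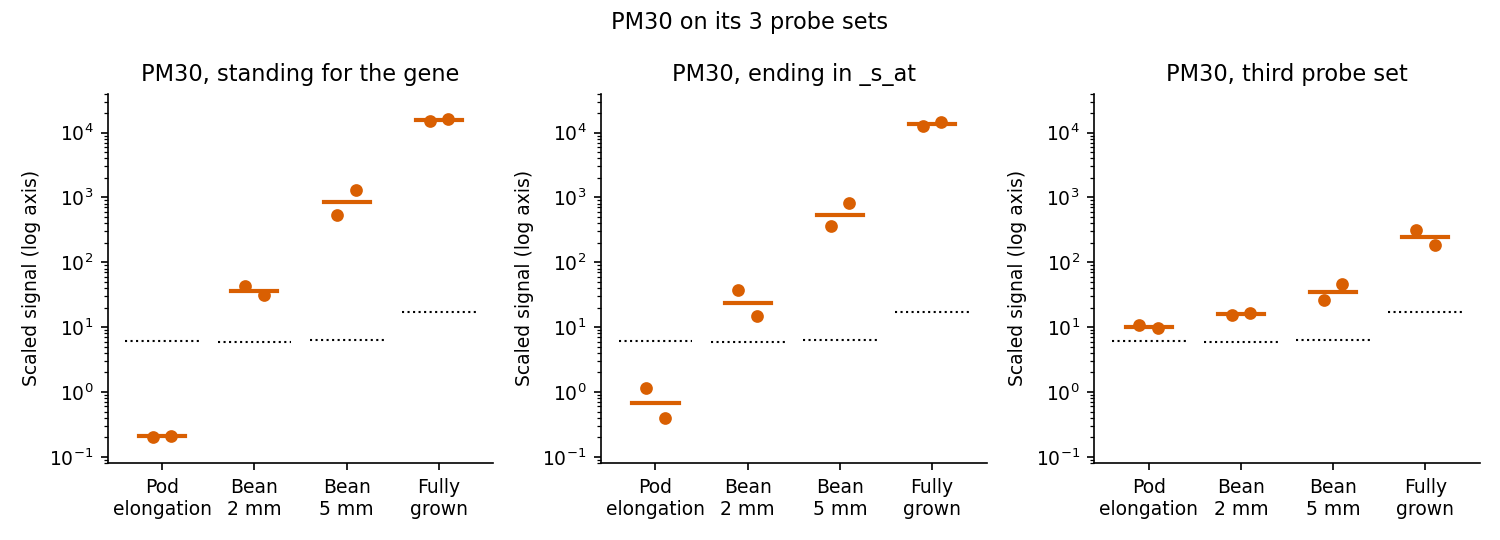
Scaled signal (log axis) of the 3 PM30 probe sets on each array by stage. Points are arrays, bars geometric means of 2 arrays and dotted lines the mean background limit of the stage. The first and second sets end at 12609 to 16195, the third at 188 and 310.

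Transcripts most like each member over the 8 arrays were sought among 950 other genes with a symbol that is not a bare locus name, by Pearson correlation of log2 values. All arrays share their stages, so a large change in fully grown beans is enough for a high value. PM28 was closest to PM22 (r = 0.999), SBP65, a biotin-binding seed protein known from pea, and PM31 itself. PM31 was closest to the storage globulin genes GY3 (r = 0.999), GY5 and CG-BETA-1. GY3 read 2.01 and 0.231 in 5 mm beans, both below background, and 10680 and 14221 in fully grown beans.

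PM30 was closest to CP3 (r = 0.999), to FAD2-1A (r = 0.998), the seed oleate desaturase, and to PRX3. FAD2-1A read 23.0 and 23.6 in 2 mm beans, 593 and 1031 in 5 mm beans and 10182 and 11113 in fully grown beans. PM34 was closest to PM12 (r = 0.998), to GM2S-1, a 2S albumin by its symbol, and to NF-YA13, a subunit of a CCAAT-binding transcription factor. PM29 was closest to A1, P89 and GASA4, at r between 0.987 and 0.989. LEA-2 was closest to GLYI-23, a glyoxalase (r = 0.975), LOX10 and GBF2, and of these LOX10 was above background on only 3 arrays.

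Among themselves PM28 and PM31 were most alike (r = 0.999 over 8 arrays), followed by PM30 with PM34 (r = 0.981) and PM30 with PM29 (r = 0.977). PM29 and PM31, an early and a late gene, gave 0.719. LEA-2 lay between -0.13 and 0.54 with the other 5. These values describe the 8 arrays and carry no test.

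The wider set of maturation genes was read beside the members: 20 other genes whose symbol begins with PM and a digit, LEA, SLE or MAT. From pods to bean 2 mm, 4 of them rose and 2 fell, where 26.5% of all tested probe sets were called higher and 20.4% lower. LEA5, a LEA gene by its symbol, rose by 1.59 (SE 0.27, adjusted p = 0.00136) and PM40 by 0.94 (SE 0.23, adjusted p = 0.0101). PM1, a LEA protein of the fourth group, fell by 1.08 (SE 0.22, adjusted p = 0.00428) and MAT1 by 1.04 (SE 0.24, adjusted p = 0.00743, limma). The median log2 change of the 20 was 0.08, like that of all tested probe sets.

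From bean 2 mm to bean 5 mm 10 of the 20 rose and none fell, against 9.29% of all tested probe sets called higher and 9.49% lower. The largest rises were those of PM12, by 2.80, LEA5, by 2.68, PM16, by 2.01, and PM40, by 1.98 on the log2 scale, with adjusted p between 0.000612 and 0.00135 (limma). Fewer were called when either bean 2 mm array or bean 5 mm replicate 2 was left out, and the share of all tested probe sets fell as well. PM30 and PM34, at 4.03 and 3.42, lay above the highest of the 20, and PM28 and PM31, at -0.21 and -0.35, close to the lowest, -0.28.

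From bean 5 mm to fully grown beans all 20 rose, against 31.6% of all tested probe sets called higher and 20.5% lower. Under control-based scaling 17 were higher and 1 lower, against 1.83% and 84.4% of all tested probe sets, and as deposited 19 and 1, against 5.26% and 59.1%. PM22 rose by 6.97 (SE 0.16, adjusted p = 1.79e-08), PM9, like PM1 a LEA protein of the fourth group, by 6.76, PM1 by 6.66 and SLE2, a group 1 LEA protein, by 6.16 (limma). The smallest change was that of PM23, 0.74. The fitted changes of PM28 and PM31 lay above the highest of the 20, and LEA-2 and PM29, at 1.19 and 1.24, above PM23 only. PM22, PM24 and SLE2 were below background on all 6 arrays of the first 3 stages and entered the test through the fully grown arrays alone. Among the members PM28 also entered through them, since only 1 of its earlier arrays was above background and the test required 2.

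By onset, 8 of the 20 were above background on both arrays from pod elongation, 4 from bean 2 mm, 5 from bean 5 mm and 3 in fully grown beans. The shares over all tested probe sets were 92.4%, 4.10%, 1.05% and 0.639% in the same order. PM37, a DnaJ-type chaperone, stayed between 2007 and 2144 on the arrays of the first 3 stages and read 7957 and 9760 in fully grown beans. PM1 read 31.3 and 37.6 in pods, 6.27 and 9.63 in 2 mm beans, 24.2 and 52.3 in 5 mm beans and 5148 and 5384 in fully grown beans. Its lowest stage was bean 2 mm, while that of LEA-2 was bean 5 mm.

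PM31 was also set beside the 4 small heat shock protein genes found by symbol, HSP17.5-E, HSP22.3, HSP22.5 and HSP23.9. In the last step, where PM31 changed by 9.48, their log2 changes lay between -0.27 and 0.38. None was called (limma, unadjusted p between 0.079 and 0.274, adjusted p between 0.126 and 0.356). Of all tested probe sets 52.1% were called in that step, 31.6% higher and 20.5% lower. HSP22.5 was below background on bean 5 mm replicate 2 and on both fully grown arrays, so its change says little. HSP22.3 read 22.6 and 34.4 in 5 mm beans and 49.1 and 34.6 in fully grown beans, without overlap. With quantile normalization none was called either, against 50% of all tested probe sets. In the deposited values 2 were lower, where 59.1% of all tested probe sets were lower. Under control-based scaling all 4 were lower, against 84.4%. From pods to fully grown beans HSP22.3 rose by 1.39 (adjusted p = 0.000217), and HSP17.5-E fell by 1.41 (adjusted p = 0.00057) and HSP23.9 by 1.47 (adjusted p = 0.000225).

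The 2 bean 5 mm arrays differed for maturation genes more than for the typical transcript. The log2 difference of replicate 2 over replicate 1 was 0.79 for PM29, 1.25 for PM30 and 1.50 for PM34, against a median absolute difference of 0.13 over all tested probe sets at that stage. LEA-2 was at -0.08, and PM28 and PM31, both below background on both arrays, at 0.36 and -0.28. Replicate 2 was thus higher for 4 of the 6 members, PM28 among them. Of the 20 other maturation genes 16 were higher on replicate 2, with a median difference of 0.31, against 50.2% of all tested probe sets with a median of 0.00. PM22 and SLE2, among the 16, and PM24, not among them, were below background on both arrays, so their direction says little. PM9 differed by 1.35 and PM12 by 1.13 in the same direction.

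The summed seed storage markers stood at 2254 on replicate 1 and 3914 on replicate 2. KTI3 read 2228 and 3229, GY1 13.6 and 548, and GY2 4.52, below background, and 135, while CG-BETA-1, GY3 and GY5 were below background on both arrays and lower on replicate 2. The actin 3' to 5' ratio was 2.07 and 2.22. The part of these markers in the difference was not tested. At the other stages the members' median difference was 0.18 in pods, -0.02 in 2 mm beans and 0.19 in fully grown beans. Their median absolute difference was 0.18, 0.17 and 0.21 in the same order. Over all tested probe sets it was 0.12, 0.13 and 0.27.

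**Figure D5:**
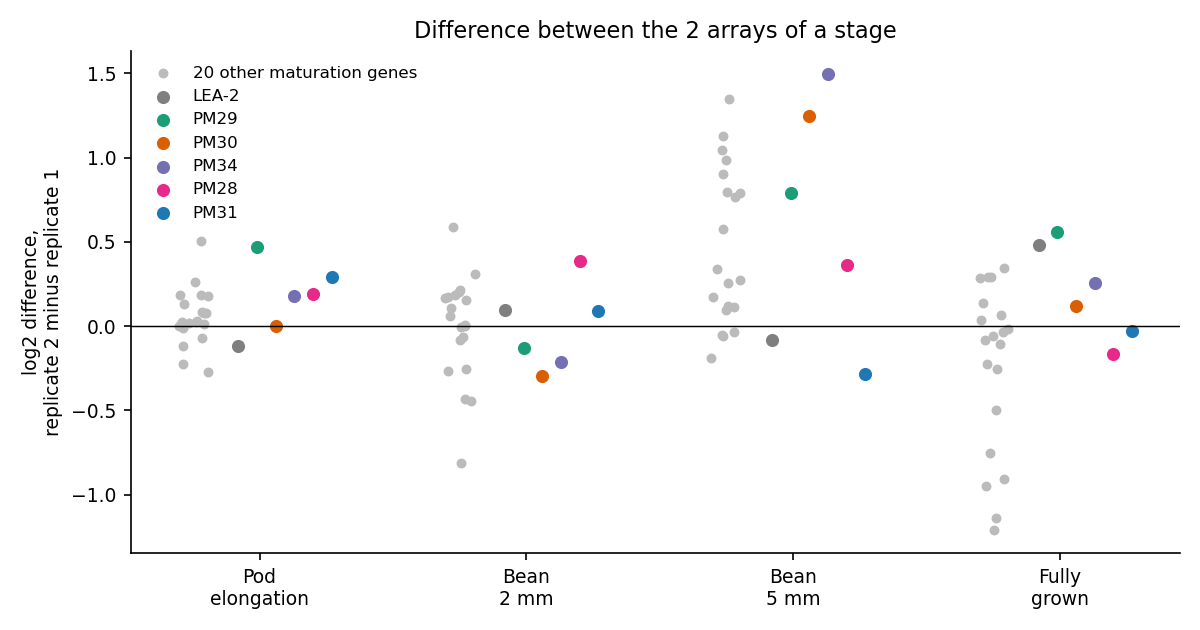
log2 difference between replicate 2 and replicate 1 of each stage for the 6 genes (large points) and 20 other maturation genes (small light grey points). In 5 mm beans PM34, PM30 and PM29 lie at 1.50, 1.25 and 0.79 while LEA-2 lies at -0.08.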

How the data were processed

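The authors deposited 1 table of linear signal intensity for 61170 probe sets on 8 Affymetrix arrays. Per the submitters' processing notes MAS5 was named for 4 samples, the 5 mm and the fully grown beans. For the remaining 4 no program is given in the sources used here, and for none a version or a scaling. From these values, 33625 soybean probe sets above the 95th percentile of 23394 pathogen probe sets on at least 2 arrays were tested. Arrays were scaled linearly to an equal median, as they were not on a common scale, and log2(scaled signal + 16) was fitted to all 8 arrays with limma 3.58.1 in R 4.3.3 (lmFit, eBayes with trend, two-sided, Benjamini-Hochberg, threshold 0.05). Fold changes on this scale understate changes of dim transcripts. The fit was tested on simulated data. Symbols came from the platform annotation (8677 probe sets with 1 gene, 370 with several or none, 28964 soybean probe sets without a single gene), of which 8652 matched RefSeq (Glycine_max_v4.0, names only). The brightest probe set stood for a gene. Members, lists and tests were chosen with earlier results of these data known. Named genes were the members, the 3 genes most correlated with each, and the 4 called genes of the wider list with the largest change at each step. PM37, PM23, PM24, the small heat shock proteins and repeats of other list genes were named after their values were seen. Deviations from the stage means correlated by -0.0481 to 0.102 between arrays sharing a number, and arrays were treated as unpaired. Alternatives covered scaling, pseudocount, filters, samples and probe sets.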

Additional observations from a re-analysis of the deposited data

How the results depend on the processing

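Signal over background limits PM28, PM31, PM34 and the brightest PM30 probe set before their onset, and PM29 on pod replicate 1. Having 2 arrays per stage limits every test. With the replicate number as a block, 3, 4 and 6 members were called at the 3 steps, as without it. From pods to fully grown beans 5 were, again as without it. Of all tested probe sets, 45.9%, 17.1% and 51.1% were called at these steps and 61.5% from pods to fully grown beans. PM34 kept its call for the last minus the middle change (2.17, adjusted p = 0.0251, limma). The block thus changed no call of a member. In the first step 5 members were called for the values as deposited, where 72.6% of all tested probe sets were, and 1 at pseudocount 64, where 46.3% were, against 3 and 46.9%. The wider list had 3 calls in that step when a change of at least 2-fold was required (16.8% of all tested probe sets), against 6. With 1 array left out, the wider list had between 5 and 13 calls in the second step, against 10, and between 4 and 8 in the first. The sign turned for LEA-2 as deposited (0.18 in the first step, -0.0099 in the last, -1.34 from pods to fully grown beans) and under control-based scaling (-1.01 in the last step, -2.40 from pods, -0.28 for last minus middle). Under the latter it also turned for PM29 in the last step (-0.93) and for last minus middle of PM30 (-2.18) and PM34 (-0.35). Values that had not been called also changed sign, for LEA-2 from pods to fully grown beans after quantile normalization (-0.32) and for last minus middle of PM30 after quantile normalization (-1.39), as deposited (-0.38) and at pseudocount 1 (-0.28). With 1 array left out, LEA-2 from pods to fully grown beans lay between -0.19 and 0.30 and last minus middle of PM29 between -1.47 and 0.11. PM29 lost its call at pseudocount 1 in the second and last steps (adjusted p = 0.0668 and 0.17), and at pseudocount 64 the first-step rises of PM29 and PM30 were not called (adjusted p = 0.0592 and 0.108). As deposited, PM28, PM31 and PM34 were called in the first step (0.52, 0.56 and 0.69), and PM28 and PM31 in the second (-0.53 and -0.74), where the median of all tested probe sets was 0.67 and -0.76. By bean 2 mm 4 members were above background on both arrays, 3 with the 99th percentile and 6 on at least 1 array. Why these values moved was not tested.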
